A study of Arabidopsis thaliana with 9 samples.

Results

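The genes described here are the protein-coding genes of the mitochondrial genome of Arabidopsis thaliana that were detected in shoots exposed to submergence or to flooding with physical flow. Members were the rows with an ATMG identifier that the deposited table types as protein coding and that had an FPKM (fragments per kilobase of transcript, scaled to the mapped fragments of the sample) above 0 in at least 3 of the 9 samples. This rule held for 87 of 120 such rows, among 32833 genes in all. The values that chose the members are their FPKM in all 9 samples, so that a member is detected here by construction. RNA was sequenced from wild-type Columbia-0 plants in 3 groups of 3 samples, and each sample pooled the shoots of 10 plants at an age of 4 weeks. Control plants received neither treatment. Submergence kept plants in still water and flooding kept them in water moving at 8 L/s, both for 30 min at a depth of about 10 cm. No gene was altered in any group, and the methods describe the pools of a group as independent biological replicates.

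Plant mitochondria keep a small genome of their own, which encodes part of the subunits of the NADH dehydrogenase (complex I), cytochrome bc1 (complex III), cytochrome c oxidase (complex IV) and ATP synthase (complex V), together with ribosomal proteins, factors that attach heme to cytochrome c, a maturase and many open reading frames of unknown function. The remaining subunits come from the nucleus. Flooding limits the diffusion of oxygen, the final electron acceptor of this respiratory chain. In plant mitochondria a poly(A) tail marks RNA for degradation, whereas the libraries were made from RNA selected for poly(A) tails, so the FPKM describe the RNA that this selection kept. In Arabidopsis a large copy of the mitochondrial genome is also inserted near the centromere of chromosome 2, and reads from the organelle and from this insertion can be alike.

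The sequences that bear on this ambiguity are shown first. The nuclear coordinates of the files matched those of the RefSeq assembly TAIR10.1 for 99.91% of 32548 nuclear genes. The mitochondrial sequence of that assembly, of 367808 bases, is not the one behind the files, where the last gene ends at base 366700, so the positions of mitochondrial sequences below are those of TAIR10.1 and the positions of members further on are those of the files. A coding sequence of 1 part was taken from TAIR10.1 for 22 named genes. In 12 of them every stretch of 50 bases, the length of the first read of a pair, also occurred in the nuclear genome. In 4 genes over 90% of the stretches did, and in 5 genes (nad4L, nad9, cox1, atp4 and ccmB) none did. The remaining gene, rpl16, had 34.62% of its stretches in the nuclear genome. The first 100 coding bases of rps12, which encodes a protein of the small ribosomal subunit, are shown because no base tells both loci apart, at chrMt:288446-288545 (plus strand) and at chr2:3270410-3270509 (plus strand).
rps12, mitochondrial genome: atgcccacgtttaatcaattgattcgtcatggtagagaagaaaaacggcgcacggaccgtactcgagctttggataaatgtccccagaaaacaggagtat
rps12, chromosome 2: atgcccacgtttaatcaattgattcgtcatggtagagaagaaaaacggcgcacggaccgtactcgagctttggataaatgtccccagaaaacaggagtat
The whole coding sequence of atp9, which encodes the ring subunit of ATP synthase and was the most abundant member, is likewise the same at chrMt:270961-271185 (minus strand) and chr2:3251856-3252080 (minus strand).
atp9, both loci: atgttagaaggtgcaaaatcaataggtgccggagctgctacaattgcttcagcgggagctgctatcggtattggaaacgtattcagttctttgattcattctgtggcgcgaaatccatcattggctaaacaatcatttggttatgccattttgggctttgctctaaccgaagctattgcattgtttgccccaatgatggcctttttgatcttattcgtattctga
Other genes differ from their copy at a few bases of the reference DNA. Which of these bases the RNA reads carried was not examined. In ccmFN1, a heme attachment factor, 1 of 1149 coding bases differed (C54T, the mitochondrial base first, counted from 1 at the start codon). The stretches around it, at chrMt:316041-316091 (plus strand) and chr2:3297918-3297968 (plus strand), show the difference in capitals.
ccmFN1, mitochondrial genome: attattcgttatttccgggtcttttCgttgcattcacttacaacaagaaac
ccmFN1, chromosome 2: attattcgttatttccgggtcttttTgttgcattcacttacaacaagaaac
In matR, the maturase gene, 5 of 1971 bases differed, of which T229A and C241T are in capitals in the stretches at chrMt:231298-231348 (plus strand) and chr2:3402438-3402488 (minus strand).
matR, mitochondrial genome: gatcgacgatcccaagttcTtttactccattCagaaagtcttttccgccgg
matR, chromosome 2: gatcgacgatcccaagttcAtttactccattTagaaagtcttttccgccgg
By contrast, the best nuclear match of nad9, a complex I subunit, covered 19.55% of its coding sequence and held 8 differences, in capitals below, at chrMt:25126-25237 (plus strand) and chr3:16084655-16084766 (minus strand).
nad9, mitochondrial genome: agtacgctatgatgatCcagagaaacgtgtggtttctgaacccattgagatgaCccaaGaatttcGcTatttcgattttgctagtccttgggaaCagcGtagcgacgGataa
nad9, chromosome 3: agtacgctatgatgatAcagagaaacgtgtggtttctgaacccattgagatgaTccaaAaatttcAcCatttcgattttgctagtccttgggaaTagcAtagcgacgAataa
Of the genes of several coding parts, all stretches of nad4 and ccmFC also occurred in the nuclear genome, against 7.44% of those of rps3.

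Members had low FPKM in these libraries, and a few of them carried much of the signal. The median of their mean FPKM over 9 samples was 0.403, with a range of 0.0222 to 21.1. By comparison, the median was 43.1 for 41 nuclear genes whose annotation names a mitochondrial respiratory complex and 11.2 for 77 detected protein-coding genes of the chloroplast genome. These medians describe the RNA kept by the poly(A) selection, so they do not compare the transcript levels of the genomes. The summed FPKM of all 87 members was 140 ± 23.7 in control samples, 113 ± 17.9 in submergence samples and 138 ± 17.1 in flooding samples (SD, n = 3 each), or 0.0126% to 0.0203% of the FPKM of all genes in a sample. The groups overlapped in this sum, which ran from 112 to 154 among the control samples, from 95.8 to 131 among the submergence samples and from 121 to 155 among the flooding samples. The 4 highest members (ATP9, ORF141, ORF107H and RPL16) made up 38.1% to 43.1% of it. Fewer cells with such transcripts and less of them per cell cannot be told apart in pooled tissue.

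**Figure D1:**
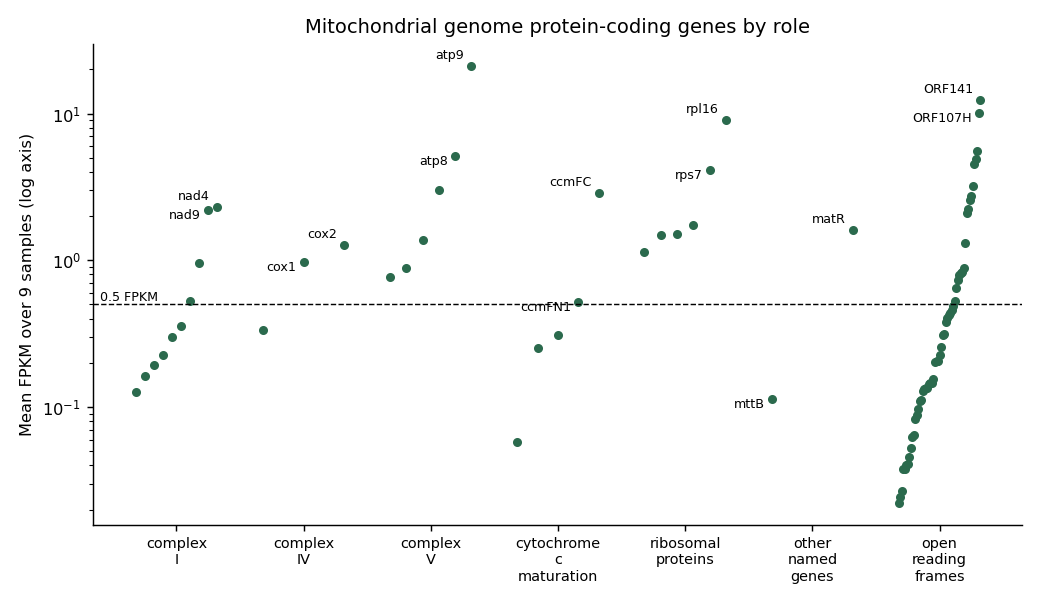
Mean FPKM over 9 samples (log axis) of each of the 87 members, ordered within their role, with the highest members of each role named and a dashed line at the 0.5 FPKM used for testing. Most open reading frames sit below the line, all members of complex V and of the ribosomal proteins sit above it, and complex III has no member.

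Of the 87 members 45 were above 0 in all 9 samples, 47 did not exceed 1 FPKM in any sample, and 39 had a mean FPKM of at least 0.5. Of the 33 rows left out, 13 were at 0 in all samples and 20 were above 0 in 1 or 2 samples, with values up to 1.07. At the edge of the rule, the 9 members detected in exactly 3 samples reached at most 0.5 FPKM (ORF111B), and the 10 rows detected in exactly 2 samples reached at most 1.07 (NAD3). By role, members were 10 of 12 complex I rows, 3 of 3 complex IV rows, 6 of 6 complex V rows, 5 of 5 cytochrome c maturation rows, 6 of 7 ribosomal protein rows, both other named genes (matR, and mttB of a protein translocase) and 55 of 84 open reading frames. The open reading frames spanned 303 to 948 bases, with a median of 411. In the files 16 members overlap another row of the mitochondrial genome. These include RPL16 with rps3 over 134 bases, ORF114 with ORF118 over 203 bases, MATR, which lies inside an intron of NAD1C, and ORF107H, which lies inside the row of NAD2B. How fragments were divided between overlapping rows is not given in the sources used here, and neither is the strand setting of the counting, so the values of these rows are uncertain.

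Few fragments lay behind most members. In nuclear genes with 1 exon and 1 transcript, low FPKM fell on whole multiples of 1 fragment for 81.9% to 87.7% of values (within 0.006 FPKM) once 179 to 197 bases were taken off the gene length, which gave an estimated depth of 32250000 to 59750000 fragments per sample. With these fitted values, the mean estimate per sample of 69 members of 1 coding part had a median of 3.9 fragments. Of them 47 had a mean estimate under 10 fragments and 15 under 1, whereas 4 (ATP1, ORF313, RPL16 and ORF141) reached 100. Of the low member values 53.5% to 84.8% came out whole. These are estimates, since read counts were not used here. Submergence replicate 1 had the lowest estimated depth, and of the 45 members detected in all samples 20 had their lowest value there. The part of depth in this was not tested.

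**Figure D2:**
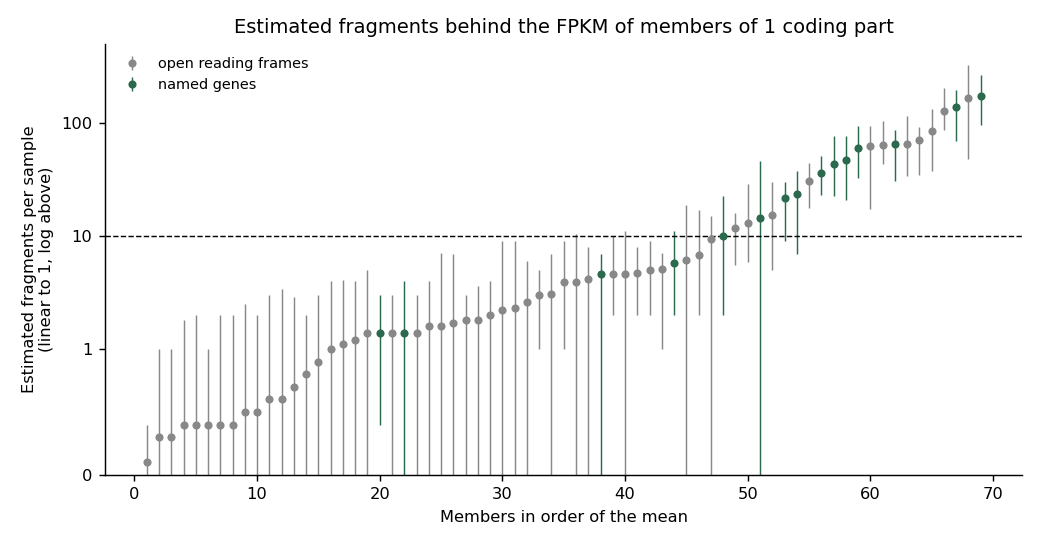
Estimated fragments per sample behind the FPKM of 69 members of 1 coding part, in order of their mean (points) with the fewest and most fragments among the 9 samples (lines), open reading frames in grey and named genes in green, on an axis that is linear to 1 and logarithmic above. The dashed line marks 10 fragments, and 47 of the 69 means lie below it.

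Complex I was represented mainly by NAD4 and NAD9. NAD4 (ATMG00580, base 161693 to 169674), a proton-pumping subunit in the membrane arm, had 1.92, 2.96 and 3.06 FPKM in the control samples, 1.77, 1.97 and 2.09 in the submergence samples and 2.30, 2.28 and 2.47 in the flooding samples. The lowest control sample lay within the submergence samples, and all flooding samples lay above them. NAD9, a subunit of the matrix arm with no stretch of 50 bases in the nucleus, had a mean of 2.37 ± 0.438, 2.2 ± 0.480 and 1.99 ± 0.395 FPKM in the control, submergence and flooding samples (SD, n = 3 each), differences below the spread of the samples. NAD7 had a mean over 9 samples of 0.964 FPKM, and 6 other nad members were below 0.5. NAD6, another membrane subunit, was named after its values were seen. It had 0.54, 0.93 and 0.32 FPKM in the control samples, 0.14, 0.26 and 0.11 in the submergence samples and 1.22, 0.89 and 0.33 in the flooding samples. All submergence samples lay below all others, but its mean over the control and submergence samples was too low for the test described below. An estimated 2.0, 5.2 and 2.0 fragments, not scaled to depth, stood in the submergence samples and 5.1 to 22.8 in the others. Every stretch of 50 bases of nad6 also occurs in the nuclear genome, so its row may not hold all of its reads. The genes of nad1, nad2 and nad5 are split over the genome in plants and joined as RNA, and each piece has a row of its own in the files.

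In complex IV, COX2 (ATMG00160, base 40502 to 42628), which binds cytochrome c, had 1.08, 1.32 and 1.97 FPKM in the control samples, 0.65, 1.41 and 0.95 in the submergence samples and 1.62, 1.02 and 1.34 in the flooding samples, with overlap between all groups. COX1, the catalytic subunit, had a mean of 1.12 ± 0.130 FPKM in control, 0.843 ± 0.157 in submergence and 0.967 ± 0.222 in flooding samples (SD, n = 3 each). COX3 remained at or below 0.47 FPKM. Complex III rests on a single mitochondrial gene, cob for cytochrome b, and this row was at 0 in 8 samples and at 0.03 in submergence replicate 3, so that it is no member. The row of its identical copy on chromosome 2 (AT2G07727) had 0.95, 1.05 and 1.65 FPKM in the control samples, 0.80, 1.37 and 1.39 in the submergence samples and 2.07, 1.49 and 1.22 in the flooding samples. Thus nearly all FPKM of this pair of rows stood under the nuclear row. That row spans 3243 bases against 1182 for cob, so its FPKM can also come from bases outside the cob sequence.

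Complex V held the most abundant member. ATP9 (ATMG01080, base 278649 to 279152) had 15.98, 24.21 and 26.55 FPKM in the control samples, 13.96, 21.27 and 18.46 in the submergence samples and 27.21, 18.51 and 24.08 in the flooding samples. The groups overlapped. YMF19, which is atp8, had a mean of 5.17 FPKM over the 9 samples and the same value in each sample as AT2G07707, its copy on chromosome 2. ATP1, the alpha subunit of the catalytic head, had 3.04 ± 0.806 FPKM in control, 2.75 ± 0.908 in submergence and 3.18 ± 1.3 in flooding samples (SD, n = 3 each). ATP6-1, 1 of the rows for the proton channel subunit, had 0.64, 0.63 and 0.98 FPKM in the control samples, 0.46, 0.72 and 0.81 in the submergence samples and 1.3, 1.11 and 1.27 in the flooding samples, where all 3 lay above the other 6. The genome holds another row for this subunit, ATP6-2, and how fragments were divided between them is uncertain.

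Among the cytochrome c maturation genes, CCB452 (ccmFC, ATMG00180, base 51293 to 53611) had 2.59, 3.14 and 3.77 FPKM in the control samples, 2.06, 2.89 and 2.33 in the submergence samples and 3.39, 2.43 and 3.21 in the flooding samples, again with overlap. The other 4 had means of 0.0578 to 0.517 FPKM. Among the ribosomal proteins, RPL16 of the large subunit (ATMG00080, base 25076 to 25615) had 8.33, 9.77 and 9.08 FPKM in the control samples, 6.02, 10.10 and 8.50 in the submergence samples and 13.07, 8.87 and 7.09 in the flooding samples. Its highest and its second lowest value were both in flooding samples. The other 5 had means of 1.13 to 4.12 FPKM. MATR (ATMG00520, base 144294 to 146312), the maturase that takes part in the splicing of group II introns, had 1.55, 1.97 and 1.91 FPKM in the control samples, 1.16, 1.36 and 1.62 in the submergence samples and 1.64, 1.79 and 1.36 in the flooding samples.

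The 3 highest open reading frames were ORF141, ORF107H and ORF149, none of known function in the files. ORF141 (ATMG00500, base 130968 to 131393) had 8.78, 14.88 and 13.20 FPKM in the control samples, 11.02, 13.35 and 8.95 in the submergence samples and 15.48, 10.16 and 15.19 in the flooding samples. It shares 173 bases with ORF107C, which was at 0 in all samples. ORF107H (ATMG01330, base 329082 to 329465) had 13.62, 10.77 and 11.13 FPKM in the control samples, 9.28, 11.87 and 7.54 in the submergence samples and 10.36, 8.53 and 7.46 in the flooding samples. All flooding samples were below all control samples, whereas submergence replicate 2 lay among the controls. ORF149 (ATMG00660, base 190104 to 190553) had 4.08, 6.93 and 5.89 FPKM in the control samples, 6.31, 5.60 and 5.18 in the submergence samples and 6.74, 4.99 and 4.48 in the flooding samples, with no separation of the groups. ORF139A and ORF139B had the same value in every sample, and ORF106A had the same values as AT2G07701 on chromosome 2.

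**Figure D3:**
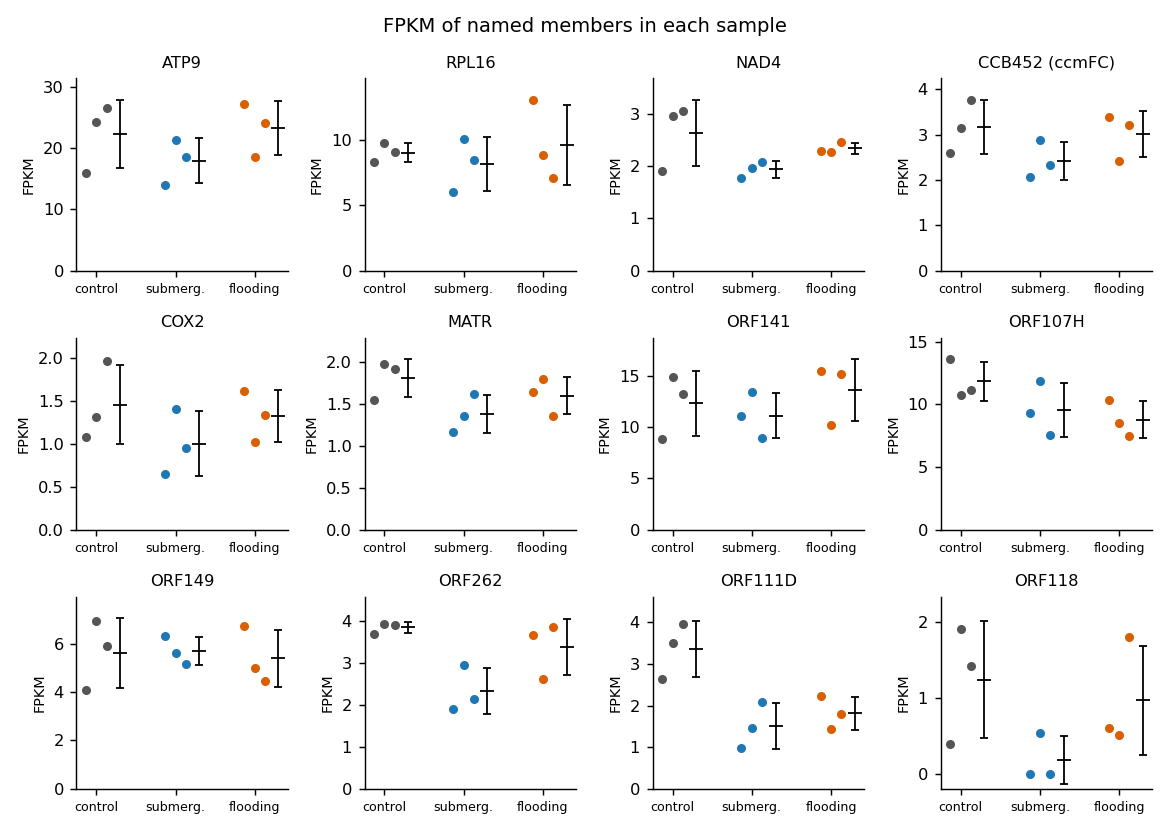
FPKM of 12 members named in the text in each of the 3 control (grey), 3 submergence (blue) and 3 flooding samples (orange), with the mean and SD of each group beside the points (n = 3). ORF111D is lower in all 6 stressed samples than in the control samples, ORF262 is lower in the submergence samples, and most other panels overlap.

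To ask whether the 30 min of submergence altered these transcripts, limma was run on log2(FPKM + 0.1) over every gene that averaged 0.5 FPKM or more in the 6 samples, and a gene was called when its p, adjusted after Benjamini-Hochberg, was under 0.05. A log2 fold change on this scale understates the change of low genes. Of 35 members tested, none rose and 2 fell, both open reading frames. Among all 18814 tested genes 9.03% rose and 8.45% fell. The median standard error (SE) was 0.263 for the tested members and 0.128 for all tested genes. A change of equal size was thus less readily called in a member. Without adjustment, 0 members had a p under 0.05 upward and 4 downward, beside 6010 of the 18814 genes in either direction. The median log2 fold change of the tested members was -0.27, against -0.03 for all tested genes. It was -0.15 without submergence replicate 1 and lay between -0.39 and -0.19 without any other single sample. Other lists described further on also had a median below 0, from -0.25 (4 genes of mitochondrial RNA synthesis and decay) to -0.10 (nuclear respiratory genes). The chloroplast genome genes stood at -0.18, and only the 2 cytochrome c genes had a median above 0 (0.18). Of the 35 members 8 were above 0, against 45.6% of all tested genes, and 27 were below. By role, 3 of 3 complex I, 2 of 2 complex IV, 5 of 6 complex V and 5 of 6 ribosomal protein members were below 0, none of them past the threshold. Members whose groups did not overlap numbered 0 upward, against 16.6% of all tested genes, and 2 downward, against 21.9%.

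The transcripts that fell under submergence were ORF111D and ORF262. ORF111D (ATMG01370, base 360717 to 361052) had 2.63, 3.51 and 3.96 FPKM in the control samples, 0.99, 1.45 and 2.09 in the submergence samples and 2.22, 1.43 and 1.80 in the flooding samples. Every stressed sample was below every control sample. It fell by 1.14 on the log2 scale under submergence (SE 0.284, limma, adjusted p = 0.0347). An estimated 24.0, 30.2 and 25.1 fragments stood in the control samples and 5, 10 and 13 in the submergence samples. These estimates are not scaled to depth, which was highest in control replicates 1 and 2, so they do not measure the size of the fall. ORF262 (ATMG01090, base 279463 to 280251) had 3.70, 3.94 and 3.91 FPKM in the control samples, 1.91, 2.95 and 2.14 in the submergence samples and 3.68, 2.63 and 3.86 in the flooding samples. It fell by 0.72 (SE 0.177, limma, adjusted p = 0.0334), with no overlap of the groups. Its neighbour ATP9, 310 bases away on the same strand, had a log2 fold change of -0.30 (SE 0.225, adjusted p = 0.41). Both calls were lost when any control sample was left out, where 0 members fell. ORF111D was also lost without submergence replicate 2 (adjusted p = 0.084) and ORF262 without submergence replicate 3 (adjusted p = 0.0837), while leaving out submergence replicate 2 added a call for ORF118 (adjusted p = 0.0309).

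ORF118 (ATMG01010, base 261105 to 261461) had the largest difference, with 0.39, 1.91 and 1.42 FPKM in the control samples, 0, 0.54 and 0 in the submergence samples and 0.60, 0.51 and 1.80 in the flooding samples. Its log2 fold change under submergence was -2.62 (SE 0.886, limma, adjusted p = 0.0892), and no sample held more than an estimated 18.7 fragments of it. ORF118 and RPSL2 were the members tested here whose mean was below 0.5 FPKM in 1 of the groups, so that their difference helped them pass the filter. ORF313, 121 bases after NAD4, had 3.79, 7.24 and 10.20 FPKM in the control and 1.94, 4.97 and 3.22 in the submergence samples (log2 fold change -1.03, SE 0.432, adjusted p = 0.153).

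For flooding with physical flow against control, 40 members were tested. None rose, against 11.4% of 18806 tested genes, and 1 fell, against 17.2%. The median SE was again larger for the tested members (0.2745) than for all tested genes (0.1342). Without adjustment 3 members had a p under 0.05 upward and 2 downward, beside 7612 of the 18806 genes in either direction. ORF111D fell by 0.86 (SE 0.222, limma, adjusted p = 0.0257). An estimated 12, 8 and 10 fragments, not scaled to depth, stood in the flooding samples. Each flooding sample had a lower estimated depth than every control sample. The call of ORF111D was lost without control replicate 2, control replicate 3 or flooding replicate 2 (adjusted p 0.0973, 0.1 and 0.0586). The median log2 fold change of the tested members was 0.05, against -0.10 for all tested genes, and 24 of 40 were above 0, against 38.0% of all tested genes. This median changed sign without control replicate 1 (-0.07) or flooding replicate 1 (-0.09) and was at most 0.11 without another sample. ORF106F (ATMG01130) had 0.73, 0.78 and 0.18 FPKM in the control and 1.24, 0.99 and 1.40 in the flooding samples (log2 fold change 1.14, SE 0.475, adjusted p = 0.115). ORF110A (ATMG00280) had 0.14, 0.84 and 0.37 FPKM in the control and 2.00, 1.10 and 0.30 in the flooding samples (log2 fold change 1.08, SE 0.722, adjusted p = 0.31), which overlapped. This value ranged from 0.55 without flooding replicate 1 to 1.75 without flooding replicate 3. ORF110A, ORF120 and CCB382 had a mean below 0.5 FPKM in 1 of the groups of this comparison. The groups did not overlap for 2 members upward (ATP6-1 and ORF106F), against 15.8% of all tested genes, and for 2 downward (ORF107H and ORF111D), against 30.8%. ATP6-1 had a log2 fold change of 0.66 (SE 0.262, adjusted p = 0.0995) and ORF107H of -0.43 (SE 0.15, adjusted p = 0.0687). Both comparisons with control share the 3 control samples, so their values for ORF111D are not independent.

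ORF111D lies 9 bases from RRN5 and 297 bases from RRN18 on the same strand, which encode ribosomal RNA. RRN18 had 14.53, 17.57 and 16.57 FPKM in the control samples, 14.39, 14.71 and 13.58 in the submergence samples and 23.85, 29.62 and 17.84 in the flooding samples. Its log2 fold change was -0.18 (SE 0.0949, limma, adjusted p = 0.231) under submergence and 0.52 (SE 0.181, adjusted p = 0.0682) under flooding, where ORF111D fell. RRN26 had a mean of 23.6 ± 2.61 FPKM in control, 18.2 ± 2.33 in submergence and 26.7 ± 7.93 in flooding samples (SD, n = 3 each). RRN5 was at 0 in 4 samples and at 204 in flooding replicate 2. The cytosolic 18S RNA (AT3G41768) was also highest in that sample, at 3835 FPKM against 1004 to 2220 in the others. The chloroplast rrn16 (ATCG00920) had 866, 1521 and 354 FPKM in the flooding samples, all above the 158 to 331 of the other samples, and rose under flooding (log2 fold change 1.70, SE 0.491, limma, adjusted p = 0.0381). The part of these ribosomal RNA differences in the members' values was not tested.

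**Figure D4:**
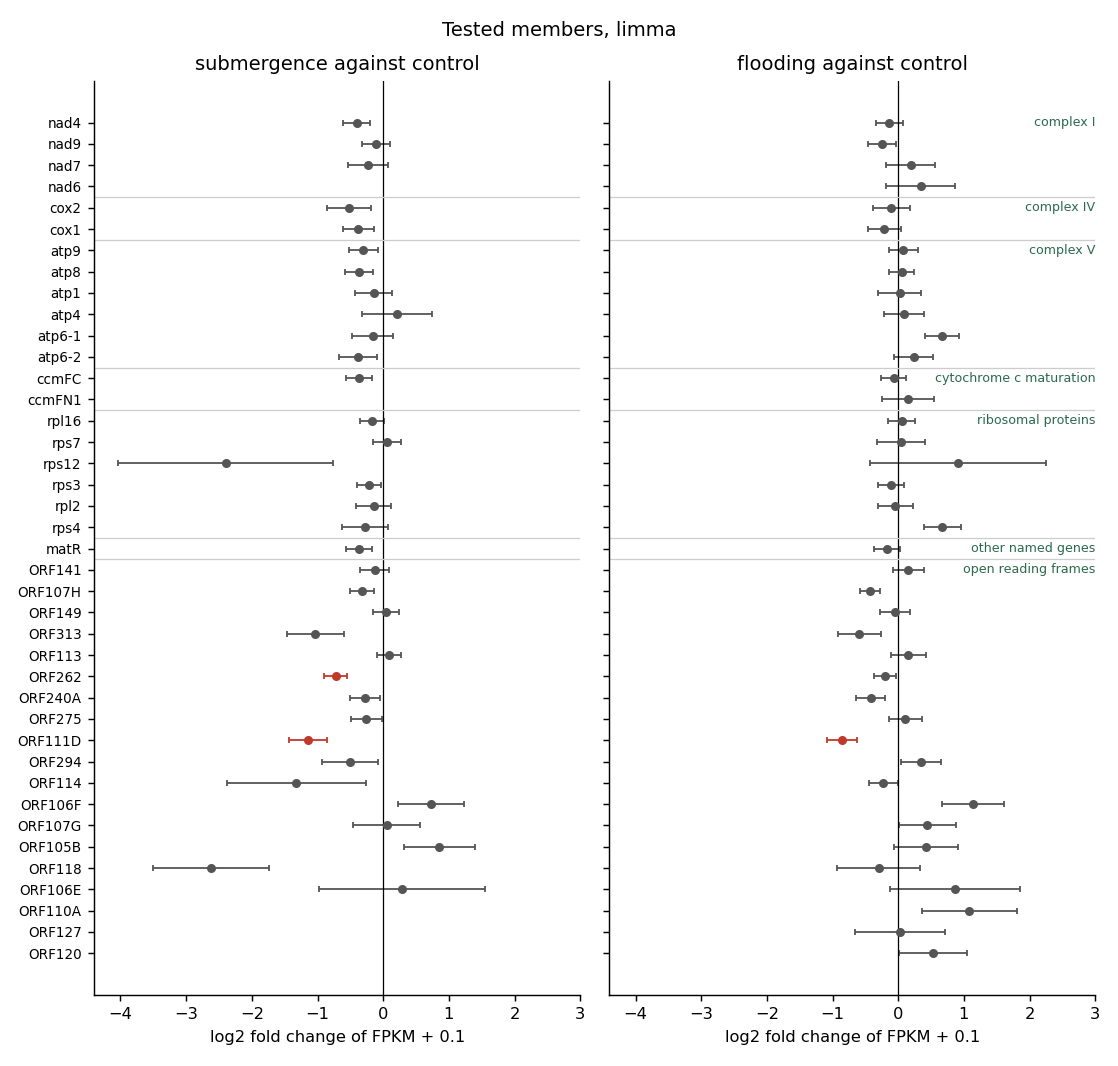
Log2 fold change of FPKM + 0.1 with its SE (limma, 3 samples against 3) of the members tested in submergence against control (left, 35 members) and flooding against control (right, 40 members), grouped by role. ORF111D on both sides and ORF262 on the left, in red, passed an adjusted p of 0.05, and most points on the left lie below 0.

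The comparison of flooding with submergence, which differ in the movement of the water and also in the vessel (a plastic container against an open channel in which plants were anchored), gave no called member among 39 tested. Among all 18864 tested genes 0% were called in either direction (0 up and 0 down), although 2780 genes had an unadjusted p under 0.05, among them 5 members upward and 0 downward. The median log2 fold change of the tested members was 0.30, against -0.07 for all tested genes, and 32 of 39 were above 0, against 37.8% of all tested genes. Without submergence replicate 1 the median was 0.16, and without flooding replicate 2 it was 0.48. The median SE was 0.304 for the tested members and 0.159 for all tested genes. The flooding samples were all higher than the submergence samples for 6 members (NAD4, ATP6-1, ATP6-2, RPS4, RPSL2 and ORF294), against 6.2% of all tested genes, and lower for none, against 15.4%. Of the 6, RPSL2 had a submergence mean of 0.34 FPKM, so that its difference helped it pass the filter. ATP6-1 and ATP6-2 are rows of the same subunit with an uncertain division of fragments, so they may not count separately. RPS4 had 1.10, 0.55 and 0.76 FPKM in the submergence and 1.66, 1.73 and 1.38 in the flooding samples (log2 fold change 0.94, SE 0.293, limma, adjusted p = 0.233). ORF118 and ORF110A had log2 fold changes of 2.33 (SE 0.886, adjusted p = 0.302) and 1.53 (SE 0.929, adjusted p = 0.515). RPSL2 and 4 other members tested here had a mean below 0.5 FPKM in 1 of the groups.

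The largest of these differences was that of RPSL2, the row of rps12 (ATMG00980, base 260224 to 260601), and it depended on the row of its copy. RPSL2 had 0, 4.22 and 3.70 FPKM in the control samples, 1.02, 0 and 0 in the submergence samples and 3.07, 2.27 and 1.35 in the flooding samples. Its log2 fold change between flooding and submergence was 3.31 (SE 0.964, limma, adjusted p = 0.219). AT2G07675, with the same coding sequence on chromosome 2, had 2.67, 0 and 3.70 FPKM in the control samples, 1.02, 5.33 and 4.64 in the submergence samples and 3.07, 3.40 and 1.35 in the flooding samples. Where 1 row was at 0 the other held the whole signal, and in 4 of the 9 samples both held the same value. With both rows summed, the log2 fold change was 0.29 (SE 0.439, adjusted p = 0.838).

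**Figure D5:**
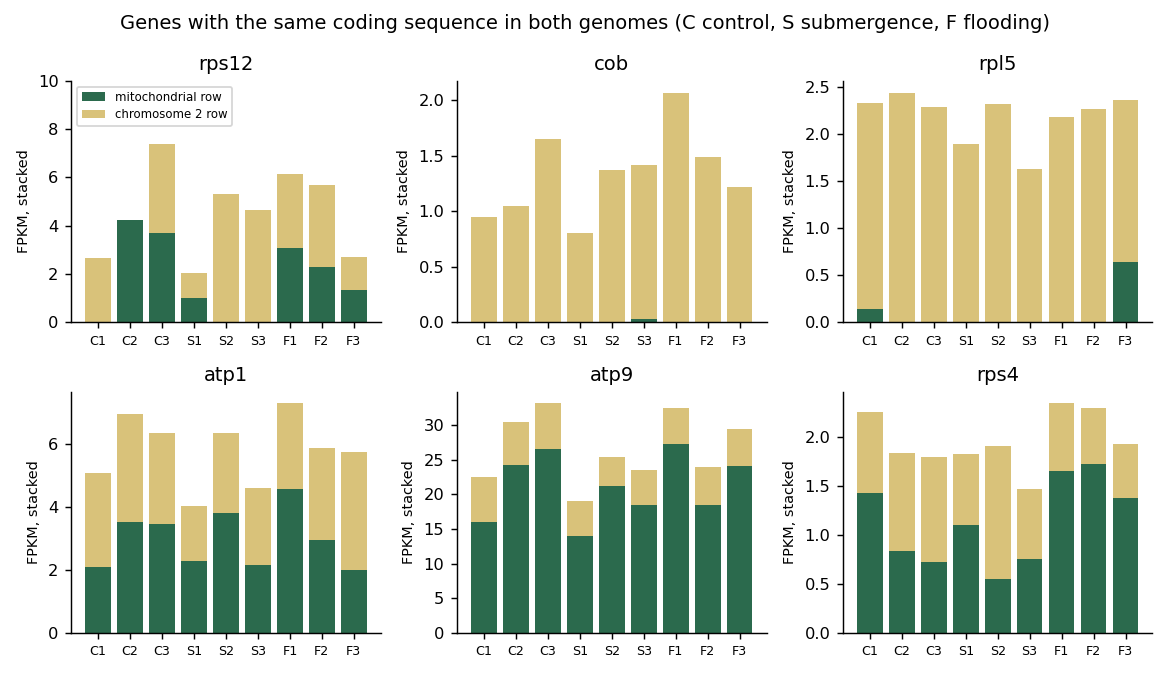
FPKM in each sample (C control, S submergence, F flooding) of 6 genes with the same coding sequence on the mitochondrial genome (green) and on chromosome 2 (yellow), stacked. For rps12 the split between the rows changes from sample to sample. For cob and rpl5 nearly all of the stacked FPKM stands under the nuclear row, which is longer than the mitochondrial row.

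The other genes with an identical copy that has a coding row on the same strand differed in the share of the summed FPKM under the mitochondrial row. Over the 9 samples this share was 71.1% to 83.8% for ATP9, 55.4% to 79.1% for RPS7, 34.7% to 62.5% for ATP1, 28.8% to 75.2% for RPS4 and 12.2% to 51.8% for COX3. It was 50% in every sample for YMF19 and CCB256 (ccmC). The nuclear rows of ATP9, RPS7, ATP1, RPS4 and RPL5 span 776, 1179, 2665, 1388 and 1662 bases. Their mitochondrial rows span 504, 447, 1524, 1089 and 558 bases, so these shares do not rest on the shared sequence alone. For RPL5, which is no member, it was 0% in 7 samples, at most 27.1%, and AT2G07725 had 1.63 to 2.44 FPKM. For NAD3, also no member, it was 0% in 7 samples but 48.1% and 65.2% in control replicates 1 and 3. RPS4, which separated flooding from submergence by its own row, had a log2 fold change of 0.32 (SE 0.189, limma, adjusted p = 0.497) once summed with AT2G07734. The summed values still did not overlap, with 1.83, 1.91 and 1.47 FPKM in the submergence and 2.35, 2.30 and 1.93 in the flooding samples. COX3, too low to be tested alone, was tested as a sum, with 0.837 ± 0.0513 FPKM in control, 0.90 ± 0.204 in submergence and 1.24 ± 0.218 in flooding samples (SD, n = 3 each) and a log2 fold change of 0.50 under flooding (SE 0.238, limma, adjusted p = 0.157). Summing 10 members with a row on chromosome 2 (the members above and RPSL2, with CCB203, whose copy is not quite identical, and ORF106A) left the calls of ORF111D and ORF262 as they were.

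ORF110B (ATMG00630), with a mean of 0.156 FPKM too low for the test, was named after its values were seen. It had 0.45, 0.48 and 0.32 FPKM in the control samples, 0, 0.15 and 0 in the submergence samples and was listed at 0 in all flooding samples. These values correspond to an estimated 4.0, 4.0 and 2.0 fragments in the control samples and 1.0 in submergence replicate 2. With no filter on low values it was called as lower in both stresses (limma, adjusted p = 0.0285 under submergence and 0.000405 under flooding). These p-values come from the same values that led to its choice, so they add no support. All flooding values are also equal on the log2 scale, so they show no spread between those samples. Of the 4 samples where ORF110B was detected 3 were controls, so that it is a member through that group. Another 8 members were at 0 in all samples of a stressed group, and no member was at 0 in all control samples. The share of all genes with such zeros was not counted. Estimated depth differed in the same direction as the zeros of the members. It was highest in control replicates 1 and 2, and every flooding sample lay below every control sample. Among the submergence samples, only replicate 2 lay above control replicate 3. The part of depth in these zeros was not tested.

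Nuclear genes of related function are given for comparison. The counts below stand beside 9.03% of all tested genes that rose and 8.45% that fell under submergence. Under flooding 11.4% of all tested genes rose and 17.2% fell. The first list was taken by the names of annotation terms, and besides subunits of the respiratory complexes it holds prohibitins, vacuolar ATPase subunits (VHA-E1 was its highest gene), lipoamide dehydrogenases and SHM2. Of the 41 nuclear genes annotated to a mitochondrial respiratory complex 38 were tested, and none rose under either stress. Under submergence 2 fell and under flooding 3, with a median log2 fold change of -0.10 and -0.08. Those called in both were LPD1, a lipoamide dehydrogenase of the mitochondrial matrix rather than a subunit of the chain (log2 fold change -0.57 and -0.50, limma, adjusted p = 0.00629 and 0.0145), and HCC1, a copper chaperone for complex IV (-0.44 and -0.52, adjusted p = 0.0118 and 0.0333). AT4G32210, a complex II subunit, fell under flooding (-0.24, adjusted p = 0.0474). The nuclear cytochrome c gene CYTC-2 rose from 40.1 ± 3.18 FPKM in control to 58.5 ± 3.88 in submergence and 74.9 ± 9.23 in flooding samples (SD, n = 3 each; limma, adjusted p = 0.00833 and 0.000953), while CYTC-1 was not called. Among 10 genes of alternative respiration, 0 rose and 1 of 7 tested fell under submergence, and 2 rose and 2 of 8 tested fell under flooding. AOX1A, the main alternative oxidase, fell from 88.1 ± 3.43 FPKM in control to 45.9 ± 5.60 in submergence and 61.4 ± 3.54 in flooding samples (SD, n = 3 each; limma, adjusted p = 0.00197 and 0.00271). The external NADH dehydrogenase NDB2 rose under flooding (log2 fold change 0.56, adjusted p = 0.00684), and so did NDA1 (0.39, adjusted p = 0.0494), while NDA2, also a NADH dehydrogenase, fell (-0.40, adjusted p = 0.0388). Of 4 genes for mitochondrial RNA synthesis and decay, including the polymerases RPOTm and RPOTmp and the nuclease PNP2, 0 were called under submergence and 1 under flooding, the exonuclease RNR1 (log2 fold change -0.29, adjusted p = 0.0342). Of 75 chloroplast genome genes tested, 0 rose and 3 fell under submergence, and 2 rose and 2 fell under flooding. Their median log2 fold change was -0.18 under submergence and -0.20 under flooding. Of 71 genes of the insertion on chromosome 2, 0 rose and 3 of 25 tested fell under submergence, and 0 of 26 tested were called under flooding. The median log2 fold change of the tested insertion genes was -0.13 under submergence and -0.02 under flooding. None of these lists had a called gene between flooding and submergence. In that comparison the median log2 fold change was 0.23 for the insertion genes and -0.04 for the chloroplast genome genes.

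Markers of the sampled tissue were as labelled. All 6 shoot markers (light-harvesting and Rubisco small subunit genes and PSAD-1) were abundant, with a summed FPKM of 31190 to 44740 per sample, whereas 5 root markers summed to at most 0.28 and 4 flower markers to at most 0.55. The 4 shoot apex markers summed to 0.03 to 2.91 in the control, 0.08 to 9.45 in the submergence and 0.08 to 6.04 in the flooding samples, with 1 of them at 0 throughout, and thus varied within every group. The part of this in the members' values was not tested.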

How the data were processed

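The authors extracted RNA from frozen shoots, selected poly(A) RNA, prepared stranded libraries, trimmed the paired reads, aligned these to TAIR10 (STAR), counted reads per gene (featureCounts) and tested the counts in DESeq2 1.20.0 (submitters' processing notes and methods). They deposited FPKM per gene and sample with 2 decimals. The deposited name refers to another quantifier (RSEM), and which tool made the values is not given in the sources used here. The columns of stressed samples name no stress and were assigned from panel headings of a supplementary plot, replicates by their digit. Read counts per gene were not used here, so depth was estimated from low FPKM.

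Members and lists were chosen with earlier results of these data known. For each comparison limma 3.58.1 (R 4.3.3, eBayes with trend) used the 6 samples compared, on log2(FPKM + 0.1), without rescaling, for genes averaging 0.5 FPKM or more, two-sided, with Benjamini-Hochberg adjustment over all tested genes. The test was checked on simulated data. Named members were the highest of each role, the 3 highest open reading frames, called members and, up to 3 per comparison, those with the largest differences. Copies were matched to TAIR10.1 with blastn 2.17.0 (at least 90% of the coding sequence within a coding row of the same strand). Alternatives were another pseudocount (1), no filter or a stricter one (2 FPKM), median-of-ratios, quantile and nuclear scaling, eBayes without trend, a joint fit of all 9 samples, the replicate block, summed copies and leaving out each sample. Tables and figures used Python 3.11.15, pandas 2.3.3, numpy 2.4.6 and matplotlib 3.10.9.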

Additional observations from a re-analysis of the deposited data

How the results depend on the processing

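The log2 fold changes of ORF111D, ORF262, ORF118, ORF106F, ORF110A and RPSL2 given above kept their sign under the up to 16 alternatives that gave a value, and those of other members were not followed. Under submergence 2 members fell in the main comparison, 1 (ORF110B) fell and 1 (ORF117) rose with no filter on low values, where ORF111D and ORF262 were not called (adjusted p 0.0552 and 0.0571), 1 fell with median-of-ratios rescaling, and 0 to 2 fell when samples were left out. The replicate block, by sample number, gave 4, adding ORF118 and ORF313 (adjusted p 0.0472 and 0.0467). Deviations of same-numbered samples correlated from -0.149 to 0.472, with 4 of 9 pairs over 0.1, and those of different-numbered samples from -0.503 to 0.366. With so few samples per group these correlations cannot show whether samples of the same number were handled together. Under flooding 1 member fell in the main comparison, 2 with no filter, 0 with median-of-ratios rescaling, 2 with quantile normalization and 0 to 2 when samples were left out, and 1 (ATP6-1) rose with eBayes without the trend. With the block ORF107H was called in place of ORF111D. ORF111D was called in 10 of 16 alternatives under submergence (adjusted p from 0.0164 to 0.129) and 11 of 16 under flooding (0.0245 to 0.1), and ORF262 in 11 of 16 under submergence (0.016 to 0.122). Over all genes 3288 were called under submergence (1379 to 4206 without a sample, of which 1747, 1379 and 1556 without control replicates 1, 2 and 3), 5366 under flooding (3238 to 6133, of which 3238 and 3446 without control replicates 2 and 3) and 0 between the stresses (0 to 5), where eBayes without the trend called 1 and the fit of all 9 samples 231, no member among them. The estimated fragments limit the low members most, since 1 fragment of ORF106A was worth 0.121 to 0.22 FPKM.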
